A study of Mus musculus with 48 samples.

Results

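Among fetal liver progenitors sorted as BFU-E, the early burst-forming erythroid progenitor, the cells richest in the transcripts of 5 mitotic genes were set against the poorest. The study measured RNA in 48 single mouse cells of 1 group, labelled BFU-E, from fetal liver of embryonic day 14.5. Per the labels, the cells lacked lineage markers, carried c-Kit and were the lowest for CD71, and no mouse strain, transgene or treatment is given for this group. The labels also describe cultures with stem cell factor, IGF-1, erythropoietin and dexamethasone, and do not say whether the sequenced cells were cultured. No animal, litter, chip or batch is named, and the count columns match no sample title, so all cells were treated as 1 sample.

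Each cell was scored by the sum of log2(CPM + 1) of Ccnb1, Ccnb2, Cdc20, Plk1 and Cenpf, where CPM is a gene's share of the counted reads of the cell, scaled to a sum of 1000000. The members were thus chosen by the measured levels of these 5 genes, and of C1qb, in the same counts. The 2 cells with 1000 CPM or more of C1qb, a macrophage complement gene, were left out first. Of the 46 cells retained, the 12 highest and the 12 lowest made the sets, 24 of the 48 cells in all, and 22 cells lay between. Scores ran from 35.48 to 44.90 in the 12 highest cells, from 20.40 to 35.26 between, and from 4.01 to 19.97 in the 12 lowest. The last cell inside the high set stood at 35.48 and the first outside at 35.26, a gap of 0.217. At the lower limit the scores were 19.97 inside and 20.40 outside, a gap of 0.436, and 5 retained cells lay within 2 units of each limit. The sets are therefore ranges of a score and not types of cell.

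These 5 genes work at successive steps of cell division. Ccnb1 and Ccnb2 encode the B cyclins that activate Cdk1 for entry into mitosis, Plk1 encodes a kinase of mitotic entry and spindle assembly, Cenpf encodes a protein of the outer kinetochore, and Cdc20 activates the anaphase-promoting complex, which destroys the cyclins. Transcripts of this program build up in G2 and fall after division, so mRNA levels do not separate G2 from mitosis. Many of its genes carry a CHR element, with TTTGAA as its best-known form, and CCAAT boxes near the start, bound by the MuvB complex with B-Myb and FoxM1 and by NF-Y.

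The score genes carried both kinds of element close to their starts, as did Ube2c, Cdca8 and Aspm, which were among the 15 other genes of largest difference. Windows of 120 bases, 100 before and 20 after the start, are shown for them from RefSeq on GRCm38.p6, because the promoters of the members that moved together are where these elements are known. Capitals mark the CCAAT box or, on the other strand, the letters ATTGG. They also mark 3 CHR-like words, which are TTTGAA (on the other strand the letters TTCAAA), another form written TTCGAA and the form written TTTAAA.
Ccnb1, chr13:100786467-100786586, minus strand: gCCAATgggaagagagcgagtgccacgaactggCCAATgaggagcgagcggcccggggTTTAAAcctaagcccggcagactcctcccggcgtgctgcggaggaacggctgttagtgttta
Ccnb2, chr9:70421535-70421654, minus strand: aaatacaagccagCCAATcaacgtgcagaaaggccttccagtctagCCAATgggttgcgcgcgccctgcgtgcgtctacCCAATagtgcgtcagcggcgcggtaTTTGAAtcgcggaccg
Cdc20, chr4:118437324-118437443, minus strand: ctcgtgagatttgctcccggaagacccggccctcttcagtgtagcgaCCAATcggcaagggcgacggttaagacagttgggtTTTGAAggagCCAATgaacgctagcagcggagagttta
Plk1, chr7:122159335-122159454, plus strand: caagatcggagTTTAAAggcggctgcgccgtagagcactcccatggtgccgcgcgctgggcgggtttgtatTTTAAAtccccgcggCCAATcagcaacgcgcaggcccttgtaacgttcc
Cenpf, chr1:189688067-189688186, minus strand: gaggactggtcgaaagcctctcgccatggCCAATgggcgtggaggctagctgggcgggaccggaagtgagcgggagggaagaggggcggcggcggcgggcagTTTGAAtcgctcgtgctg
Ube2c, chr2:164769829-164769948, plus strand: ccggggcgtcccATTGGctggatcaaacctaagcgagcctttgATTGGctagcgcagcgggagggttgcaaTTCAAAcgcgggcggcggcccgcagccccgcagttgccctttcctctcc
Cdca8, chr4:124936898-124937017, minus strand: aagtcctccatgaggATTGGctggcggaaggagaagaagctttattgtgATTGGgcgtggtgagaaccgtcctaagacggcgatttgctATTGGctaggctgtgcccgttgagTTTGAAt
Aspm, chr1:139454673-139454792, plus strand: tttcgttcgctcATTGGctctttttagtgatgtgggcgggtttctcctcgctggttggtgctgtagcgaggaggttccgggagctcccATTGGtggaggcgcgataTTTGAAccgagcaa

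Ccnb1 and Plk1 held TTTAAA, and the other 6 windows held TTTGAA or its reverse. Kpna2 and Kif22, also among the 15 and not shown, held both kinds of element. Nusap1, Casc5 and Kif2c, also among the 15, held none of these words in such a window. The Kif2c window (chr4:117178753-117178872) and that of Cdca8 lay wholly inside the genes as GENCODE places them, with starts at 117182639 and 124939311 on the minus strand. Which start these cells used is not known. Over windows of 300 bases, 250 before and 50 after a start, either strand counting and overlapping matches counted for each motif, 28.8% of all 32851 mouse promoters in the RefSeq table held one of the 3 CHR-like words, 37.4% held CCAAT and 11.3% held both. Among the 61 genes of the 6 mitotic lists described below that were called higher in the 12 highest cells, 52 matched the table by symbol, with 56 promoters. Of these, 45 (80.4%) held a CHR-like word, 43 (76.8%) held CCAAT and 39 (69.6%) held both. Members of the same lists that were not called higher had both in 28.2% of 78 promoters, and genes called higher outside the lists had both in 11.1% of 786. All compared genes, the closer background, had both in 8.61% of 9206 promoters and a CHR-like word in 21.6%. The S phase list described below had both in 18.2% of 44. A match of letters describes the sequence and is not evidence of binding.

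Total counts ran from 246007 to 3181280 in the 12 highest cells (median 2155230) and from 357378 to 2672877 in the 12 lowest (median 1561060). Genes read per cell numbered 5841 to 7935 (median 7256) and 5180 to 7041 (median 6530.5). Both medians were higher in the 12 highest cells, and Spearman's rho with the score over the 46 cells was 0.36 for the total count and 0.43 for genes read. With every cell thinned to the lowest total count, 246007, 933 genes were higher and 95 lower by the rule given below, against 847 and 72 without thinning. Of the 81 genes picked by the naming rule whose difference was 2 or more in size, 73 kept it after thinning, and Top2a, Stag2, Lin54, Ung, Rrp12, Blvrb, Runx1 and Mllt3 did not. The 81 include the 5 score genes, which chose the cells, and the 15 largest differences each way, so these counts are a description and not support. The counts come from reads without molecular identifiers, so any interval covers counting error only. The optical check of each chamber in the labels is the one safeguard against doublets, and no doublet caller was run.

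The score genes are described first, with no test, because they chose the cells. Ccnb1 (chr13:100778650-100786570, GRCm38) lay between 322 and 3018 CPM in the 12 highest cells, with a median of 1425, and between 0.452 and 483 CPM in the 12 lowest, with a median of 5.51. Plk1 (chr7:122159439-122169873) lay between 38.8 and 289 CPM (median 203) in the high set and between 0 and 157 CPM (median 0.317) in the low set. A single low cell carried 97.4% of the low set's summed Plk1 CPM. Ccnb2 (chr9:70407692-70421547) had medians of 526 and 3.56 CPM, Cdc20 (chr4:118432901-118437352) 242 and 0.676, and Cenpf (chr1:189640606-189688086) 318 and 13.4. Cdc20 was at 0 in 1 of the 12 highest cells and reached 527 CPM in 1 of the 12 lowest, so no single gene sorted the cells alone. Each of the 12 highest cells had 4 or 5 of the genes at 10 CPM or more, and each of the 12 lowest had 0 to 3.

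**Figure D1:**
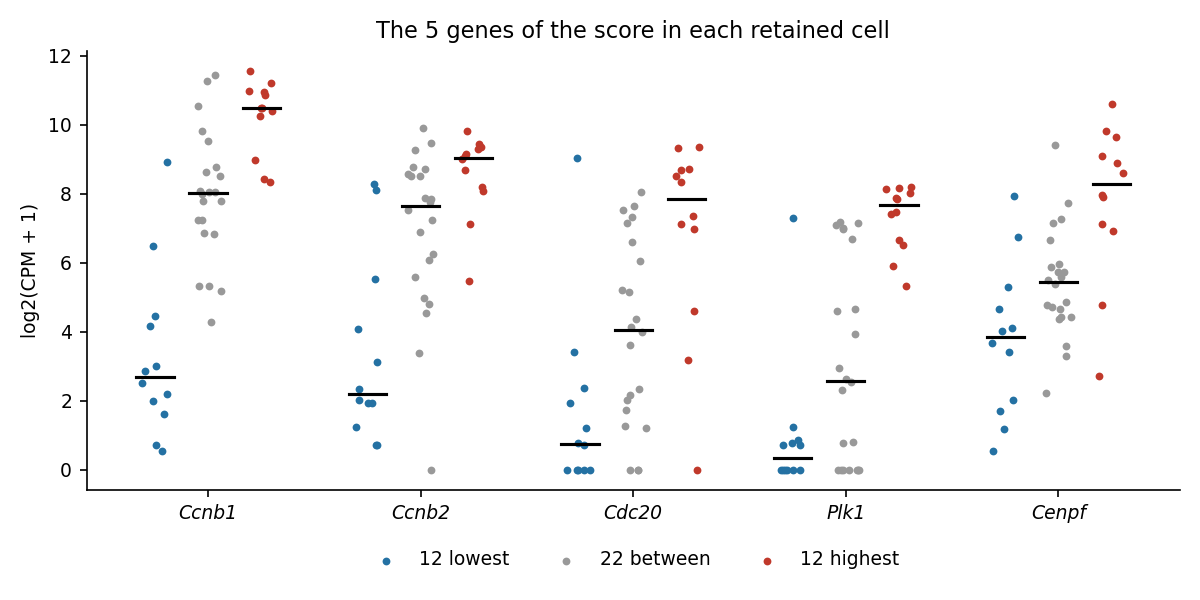
Expression of the 5 score genes in the 46 retained cells, as log2(CPM + 1) on the vertical axis, with 1 point per cell, the 12 lowest cells in blue, the 22 between in grey and the 12 highest in red, and black bars at medians. Ccnb1 medians were 5.51 CPM in the low set and 1425 CPM in the high set, and the low cells above the lowest high cell number 1 for Ccnb1 and Plk1, 3 for Ccnb2, 7 for Cdc20 and 8 for Cenpf.

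The 5 genes did not track each other closely. Over the 46 cells, the 10 pairwise rho values ran from 0.26 to 0.59, with a median of 0.34. Among the 22 cells between the sets, also chosen by the sum of these genes, rho was highest for Ccnb1 and Plk1, at 0.41. It was lowest for Ccnb1 and Cdc20, at −0.55, and every pair that held Ccnb2 or Cdc20 was below 0 in those 22 cells. These cells share 1 sample and differ in depth, so the values are descriptions. When each gene was left out of the score and the sets were drawn anew, that gene was still higher in the high set by 5.65 for Ccnb1, 3.79 for Ccnb2, 3.99 for Cdc20, 5.60 for Plk1 and 3.10 for Cenpf, as differences of mean log2(CPM + 1). Those sets shared 10 or 11 of their 12 cells with the original ones.

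The comparison across the other genes asked which transcripts accompany the mitotic ones in these progenitors. It covered 9603 genes with a count in at least 10 of the 46 cells, and a gene was called higher or lower where mean log2(CPM + 1) differed between the sets by 2 or more. This is a rule of size and not a test, since cells of 1 sample are not replicates. By it 847 genes (8.82%) were higher in the 12 highest cells and 72 (0.75%) were lower. The median difference of all 9603 genes was 0.38, with 65.6% of genes over 0, so the whole distribution was shifted toward the high set. Of the called genes 92.2% were higher; after subtraction of that median the counts were 502 higher and 184 lower, or 73.2% higher.

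Only 1 gene had sets that did not overlap, 0.0104% of those compared, and for 0 genes did the low set lie wholly above the high set. This was Tpx2 (chr2:152847964-152895321), whose protein activates Aurora A kinase and nucleates spindle microtubules. Tpx2 lay between 213 and 1096 CPM (median 457) in the 12 highest cells and between 0.374 and 152 CPM (median 29.4) in the 12 lowest. Mean log2(CPM + 1) was 8.80 ± 0.71 (SD, n = 12 cells) against 4.31 ± 2.53 (SD, n = 12 cells), a difference of 4.49. All 24 cells had at least 1 read of it, so the low set held less Tpx2 and not none.

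Of the 15 genes with the largest positive differences, 12 belonged to the 6 lists of mitotic genes. Ube2c (chr2:164769898-164778822), the ubiquitin-conjugating enzyme that works with the anaphase-promoting complex, led them. It ran from 3.40 to 1371 CPM (median 499) in the high set and from 0 to 161 CPM (median 2.56) in the low set, a difference of 6.03. Ube2c reached 100 CPM in 11 of the 12 highest cells and in 2 of the 12 lowest, and the sets overlapped. Nusap1, a protein that bundles spindle microtubules, had medians of 256 and 2.15 CPM and a difference of 5.19. Cdca8, the borealin subunit of the chromosomal passenger complex, lay between 69.6 and 677 CPM (median 287) in the high set and had a low-set median of 4.06 CPM, a difference of 5.06.

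Aurka, the Aurora A kinase, differed by 4.96 with a wide spread within the high set, from 6.30 to 990 CPM (median 52.1). In the low set 1 cell at 319 CPM held 96.6% of the summed Aurka CPM. Kpna2, an importin alpha placed in the spindle list, was the most abundant of these genes, at 589 to 4727 CPM (median 2887) in the high set and 3.07 to 760 CPM (median 174) in the low set, a difference of 4.83. Every cell of the high set had more Kpna2 than the median of the low set, and the ranges met between 589 and 760 CPM. Kif22, a chromosome-binding kinesin, and Kif2c, a kinesin that disassembles microtubules at centromeres, differed by 4.78 and 4.77.

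Casc5, which codes for the outer kinetochore scaffold also called Knl1, ran from 33.1 to 2044 CPM (median 166) against 0 to 90.6 CPM (median 1.90), a difference of 4.77. Spc25 of the Ndc80 complex differed by 4.71 and Aspm, a protein of spindle poles, by 4.44. Nde1, a dynein partner at centrosomes and kinetochores that was in none of the lists, had medians of 173 and 1.48 CPM and differed by 4.48. The remaining 2 outside the lists were Cwf19l2, at 4.65, with medians of 52.7 and 0.541 CPM, and Fam78a, at 4.63, with medians of 158 and 0 CPM. Among the cells between the sets Cwf19l2 and Fam78a had rho values with the score of −0.22 and −0.35, whereas Nusap1, Ube2c, Spc25 and Tpx2 had 0.49, 0.41, 0.41 and 0.34. All 15 kept a difference of 2 or more in each alternative processing and with each cell of the 24 left out in turn.

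**Figure D2:**
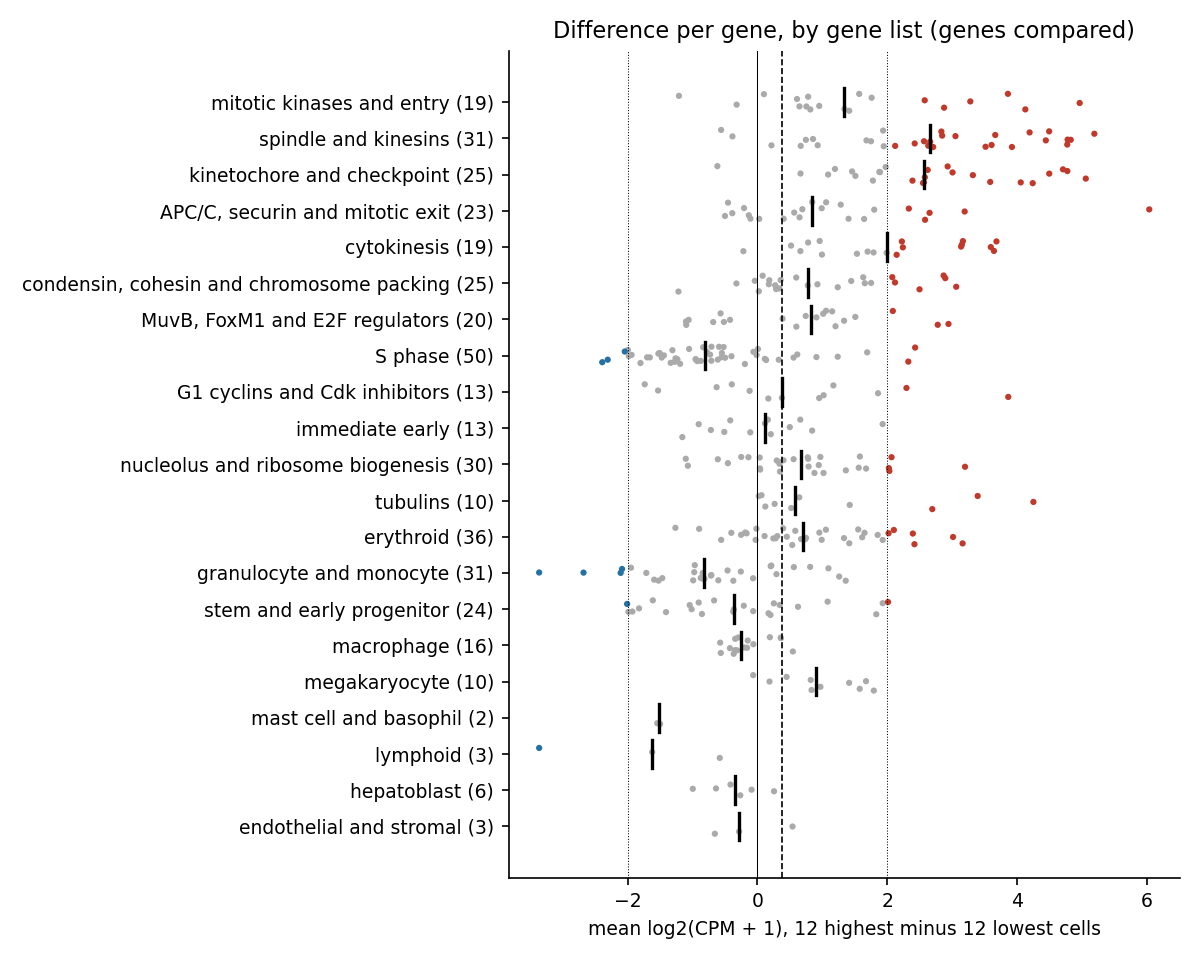
Difference in mean log2(CPM + 1) between the 12 highest and 12 lowest cells on the horizontal axis for every compared gene of each list (number in brackets), 1 point per gene, red at 2 or more, blue at −2 or less, black bars at list medians. The dashed line is the median of all compared genes, 0.38, and the spindle list lies farthest to the right, with a median of 2.66, while the S phase list has a median of −0.81.

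By role, the 6 mitotic lists together held 142 compared genes, of which 61 (43%) were called higher and 0 lower, against 8.82% and 0.75% of all genes. Their median difference was 1.75, and 127 of the 142 were over 0. These 61 were 7.20% of all genes called higher, so 786 called genes lay outside the lists. The list sizes differ, and since the score genes belong to the same program, the counts describe how far the score extends and are not independent support for it.

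Among the mitotic kinases and their regulators, 6 of 19 were called higher and 0 lower, with a list median of 1.34. Besides Aurka, they were Ccnf, the cyclin F ubiquitin ligase subunit (4.13), Aurkb, the kinase of the chromosomal passenger complex (3.86), Ccna2, cyclin A2 (3.28), Cdk1 (2.87) and Melk (2.58). Cdk1, the kinase that B cyclins activate, had medians of 507 CPM in the high set and 35 CPM in the low set, over ranges of 5.09 to 1032 and 1.27 to 691 CPM that overlapped broadly. Cdc25b, a phosphatase that activates Cdk1, had medians of 0 CPM in both sets and a difference of 0.10.

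The spindle and kinesin list had the most calls, with 20 of 31 higher, 0 lower and a median of 2.66. The kinetochore and checkpoint list had 15 of 25 higher, 0 lower and a median of 2.56. Summed over its 25 genes, the kinetochore list held 3422 to 6734 CPM in the 12 highest cells (median 4182) and 182 to 2757 CPM in the 12 lowest (median 1508), and these sums did not overlap. The sums of each other mitotic list did, those of the spindle list at 2157 to 10662 CPM and 426 to 6531 CPM. Kif20a, a kinesin of the central spindle, was an exception within the spindle list, with medians of 14.8 and 5.52 CPM and a difference of −0.38. Bub1, a checkpoint kinase, had medians of 154 and 14.5 CPM and a difference of 1.76, short of the call.

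In the list of the anaphase-promoting complex and mitotic exit, 5 of 23 were called higher and 0 lower, with a median of 0.84. These were Ube2c, Fzr1, which replaces Cdc20 as activator late in mitosis (3.19), Fbxo5, an inhibitor of the complex (2.65), Cdc27, a core subunit (2.58), and Cks1b, a small Cdk partner (2.33). The other core subunits in the list differed by −0.50 (Cdc16) to 0.84 (Cdc26), with no call. Cks1b was the most even within the high set, at 166 to 492 CPM, against 1.02 to 262 CPM in the low set. With 1 cell left out the Cks1b difference came to 1.90.

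The cytokinesis list had 9 of 19 called higher, 0 lower and a median of 1.99. Its 4 largest differences belonged to genes known for other steps: Fam64a, a regulator of the step from metaphase to anaphase (3.68), Ska1 and Ska2, which couple kinetochores to microtubule ends (3.64 and 3.16), and Cdca3, a factor of mitotic entry (3.59). Racgap1 and Anln, which act in the cleavage furrow itself, differed by 0.66 and 0.99.

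Chromosome packing genes separated the sets less. Of 25, 6 were called higher and 0 lower, with a median of 0.78: the condensin subunits Ncapg (3.06) and Smc2 (2.89), H2afx (2.87), Mki67 (2.50), Top2a (2.12) and the cohesin subunit Stag2 (2.08). Top2a, the topoisomerase that untangles sister chromatids, lay between 1.70 and 1833 CPM (median 892) in the high set and between 0.809 and 880 CPM (median 192) in the low set. It reached 10 CPM in 11 and 10 of 12 cells. Mki67, a marker of cycling cells, had medians of 575 and 102 CPM, and its highest value of all 46 cells, 3716 CPM, belonged to the low set. Both sets therefore held transcripts of cycling cells, and the low set is named here by its score and not as a resting population. With single cells left out the lowest differences were 1.58 for Top2a, 1.67 for Stag2 and 1.98 for Mki67.

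Of the MuvB, FoxM1 and E2F regulators, which control such genes, 3 of 20 (15%) were called higher and 0 lower, with a median of 0.83. The all-gene share was 8.82%, and 13 of the 20 lay over 0, close to the 65.6% of all genes. Foxm1 itself had medians of 106 and 1.76 CPM and a difference of 2.78, with 1 low cell at 1133 CPM. Tfdp2, a partner of the E2F proteins, differed by 2.94, and Lin54, the DNA-binding MuvB subunit, by 2.08 (1.52 with 1 cell left out). Among the tubulins 3 of 10 (30%) were called higher and 0 lower: Tuba1c (4.25), Tubb4b (3.39) and Tuba4a (2.69). Tubb4b lay between 191 and 2340 CPM in the high set (median 1012) and between 1.02 and 1009 CPM (median 144) in the low set.

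Genes of DNA replication lay on the other side. In the S phase list 39 of 50 genes were below 0 and 43 were below the median of all genes, with a list median of −0.81. Of the 50, 3 (6%) were called lower and 2 (4%) higher, against 0.75% and 8.82% of all genes. Summed CPM of the list ran from 3313 to 10384 (median 6105) in the 12 highest cells and from 8724 to 17795 (median 11716) in the 12 lowest, overlapping between 8724 and 10384. Uhrf1 (chr17:56303321-56323486), which brings the maintenance DNA methyltransferase to replicated DNA, had a range of 10.8 to 954 CPM (median 179) in the high set and 16.8 to 2167 CPM (median 1103) in the low set, a difference of −2.31. Exo1, an exonuclease of mismatch repair, differed by −2.39 and Ung, the uracil glycosylase, by −2.04. With 1 cell left out these 3 differences came as near to 0 as −1.97, −1.96 and −1.56.

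Pcna, the sliding clamp of replication, had medians of 167 and 509 CPM and a difference of −0.95, and Mcm6 of the replicative helicase had medians of 129 and 348 CPM and a difference of −1.995, just short of the call. The members called higher were Gins1, a subunit of the same helicase (2.43), and Rrm1, the large subunit of ribonucleotide reductase (2.32, or 1.87 with 1 cell left out). Per cell, the mean log2(CPM + 1) over the S phase list was 3.28 to 6.07 (median 4.57) in the high set and 3.55 to 6.45 (median 5.24) in the low set. The same mean over the 6 mitotic lists was 4.12 to 6.34 (median 5.35) and 2.56 to 4.47 (median 3.63). The sets overlapped widely in the first measure and by a narrow margin in the second.

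**Figure D3:**
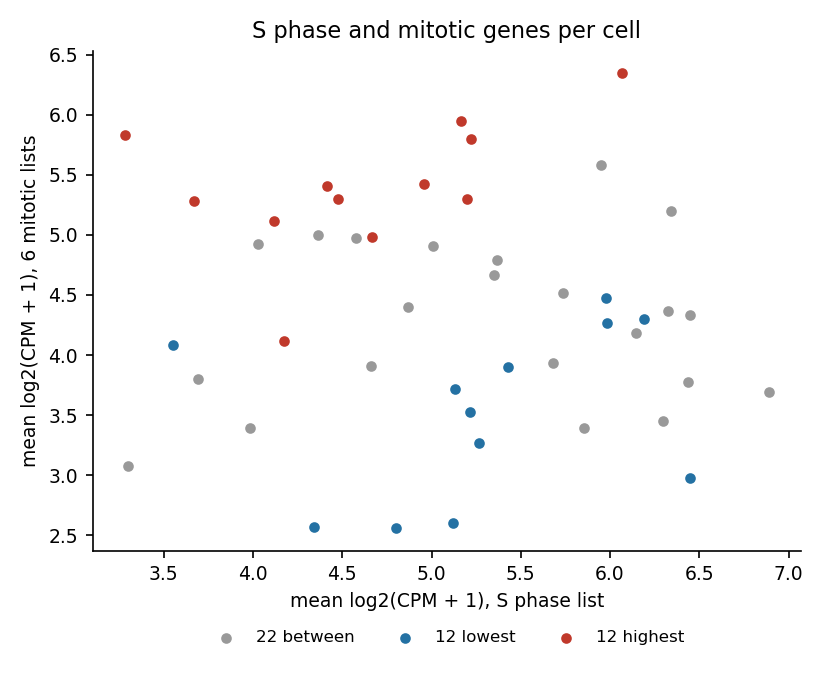
Each of the 46 retained cells by its mean log2(CPM + 1) over the S phase list on the horizontal axis and over the 6 mitotic lists on the vertical axis, 1 point per cell, coloured by set. The 12 highest cells sit at 4.12 to 6.34 on the vertical axis and the 12 lowest at 2.56 to 4.47, while both spread across most of the S phase axis.

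The strongest lower call also came from replication, although the gene was in none of the lists. Wdhd1 (chr14:47240944-47276857), which links the replicative helicase to DNA polymerase alpha, lay between 0 and 176 CPM (median 1.41) in the 12 highest cells and between 0 and 1091 CPM (median 224) in the 12 lowest. Wdhd1 reached 10 CPM in 2 of the 12 highest cells and in 10 of the 12 lowest. Mean log2(CPM + 1) was 2.03 ± 2.12 (SD, n = 12 cells) against 6.67 ± 3.39 (SD, n = 12 cells), a difference of −4.64. The difference stayed past −2 in every alternative and each leave-one-out value, from −5.25 to −4.33 in the latter. Among the cells between the sets, however, its rho with the score was 0.22.

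Each of the other 14 genes of the largest negative differences reached 10 CPM in fewer cells of the high set than of the low set. Cd24a, a surface glycoprotein of immature blood cells, reached 10 CPM in 2 high and 7 low cells (difference −3.61), and Cd27, a member of the TNF receptor family, in 1 and 7 (−3.43). Nkg7, a granule membrane protein, had medians of 1.64 and 242 CPM and a difference of −3.36. Ly6e, a lipid-anchored surface protein, ran from 1.09 to 1486 CPM (median 129) against 15.3 to 2280 CPM (median 553), a difference of −2.77. The rest were Pcyox1 (−3.24), Trim27 (−2.99), Ccdc132 (−2.84), P2rx4 (−2.83), Ext2 (−2.81), B4galt6 (−2.78), Plac8 (−2.68), Wdr3 (−2.68), Ninj1 (−2.67) and Rnf130 (−2.67). The sets overlapped for each of them. All 14 stayed past −2 with each cell left out, but each lost the call in 1 or more of 20 other settings. Plac8 was past −2 in 12 of these, Rnf130 in 13, and Pcyox1 and Ccdc132 in 15 each. Cd24a, Cd27, Nkg7 and B4galt6 were past it in 19 each. A single high cell carried 91.0% of the high set's summed Cd24a CPM, and 1 carried 99.0% of that of Cd27.

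Gata1, the transcription factor of erythroid cells, and Mpo, myeloperoxidase of the granulocyte and monocyte lineage, marked the kinds of cell in the sort, whose depletion, per the labels, included the myeloid markers Mac-1 and Gr-1. Gata1 (chrX:7959260-7978071) lay between 0.450 and 1396 CPM (median 52.1) in the 12 highest cells and between 0 and 1042 CPM (median 169) in the 12 lowest. It reached 10 CPM in 8 of 12 high cells (95% Clopper-Pearson interval 34.9 to 90.1%), 14 of 22 cells between and 6 of 12 low cells (21.1 to 78.9%). At 100 CPM the counts were 5, 11 and 6. The difference in mean log2(CPM + 1) was 0.74, no call, with 0.29 to 1.21 on leaving out single cells.

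Mpo (chr11:87793581-87804413) lay between 6.56 and 24243 CPM (median 56.8) in the high set and between 11.2 and 42679 CPM (median 918) in the low set, a difference of −2.08. It reached 1000 CPM in 3 of 12 high cells (5.49 to 57.2%), 10 of 22 cells between and 6 of 12 low cells. These intervals cover counting error of single cells of 1 sample only, and no statement on the make-up of the sets was drawn from them. The call for Mpo was past −2 in 11 of 24 leave-one-out values, which ran from −2.77 to −1.51, and in 13 of 19 other settings, so it depended on single cells.

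At unlike limits, 10 CPM of Gata1 and 1000 CPM of Mpo, the 2 genes divided the cells almost completely. At lower limits of Mpo they did not: Mpo reached 10 CPM in 10 of 12 high and 12 of 12 low cells, and 100 CPM in 4 and 8. In the low set 6 cells had Gata1 at 10 CPM or more, and the other 6, all under 10 CPM of Gata1, had 1000 CPM or more of Mpo. In the high set 8 cells had Gata1, 3 had Mpo at 1000 CPM with Gata1 under 10 CPM, and 1 had neither. No cell of either set had both 10 CPM of Gata1 and 1000 CPM of Mpo, against 3 of the 22 between. Cells at high mitotic score were thus found in both kinds: the score ran from 7.85 to 44.90 (median 30.2) over the 28 retained cells with Gata1 and from 4.01 to 43.61 (median 23.9) over the 19 with Mpo at 1000 CPM.

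**Figure D4:**
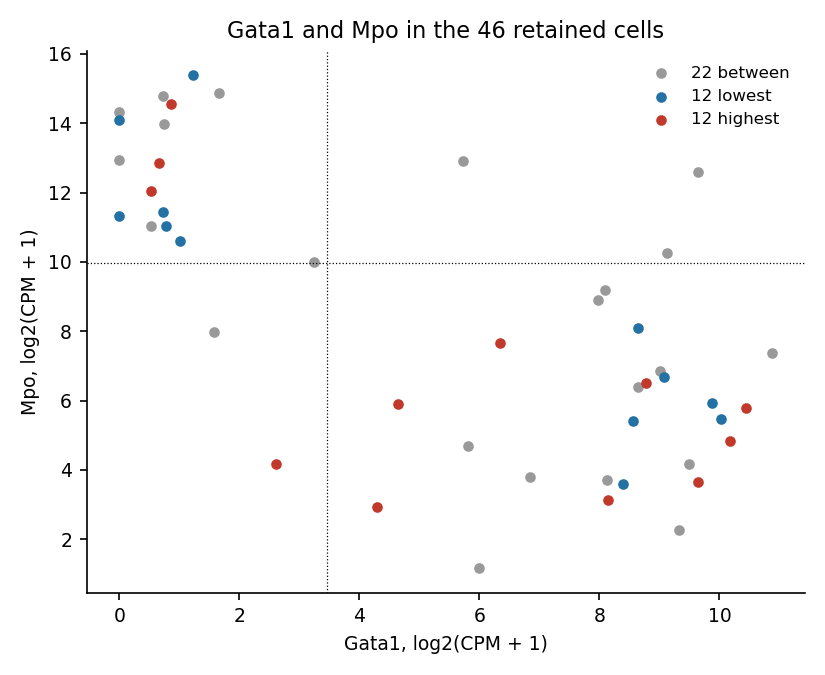
Gata1 on the horizontal and Mpo on the vertical axis, both as log2(CPM + 1), 1 point per retained cell coloured by set, with dotted lines at 10 CPM of Gata1 and 1000 CPM of Mpo. Red points, the 12 highest cells, appear both right of the Gata1 line (8 cells) and above the Mpo line (3 cells), and the 12 lowest cells divide 6 and 6.

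Within the high set mitotic transcripts outside the score were read in both kinds. These cells were chosen for a high mitotic score and the genes below for their differences, so the values are a description only. Tpx2 lay between 216 and 1096 CPM (median 494) in the 8 Gata1 cells and between 213 and 545 CPM (median 300) in the 3 Mpo cells. Ube2c had medians of 499.7 and 366 CPM. In the low set Tpx2 had medians of 94.6 CPM in the 6 Gata1 cells and 5.32 CPM in the 6 Mpo cells. Ube2c had 9.57 and 1.45 CPM there. With the comparison limited to Gata1 cells, 8 against 6, Tpx2 differed by 3.39, Ube2c by 4.48, Aurka by 5.40 and Kif22 by 4.94, and the spindle and kinetochore lists had medians of 1.45 and 1.65. In those cells Cdk1 differed by 2.09, whereas 22 of the 81 named genes were no longer past the limit. Among them were Fbxo5 (0.92), Foxm1 (1.07), Smc2 (1.07), Lin54 (1.25), Mki67 (1.54), Ncapg (1.62), Cdc27 (1.70), Fam64a (1.81), Cks1b (1.82) and Top2a (1.98).

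In the erythroid list 6 of 36 genes (16.7%) were called higher and 0 lower, against 8.82% and 0.75% of all genes, with a list median of 0.70 against 0.38. They were Gypc, glycophorin C (3.16), Car1, carbonic anhydrase 1 (3.01), Klf1, an erythroid transcription factor (2.42), Icam4, a red cell adhesion molecule (2.39), Blvrb, biliverdin reductase B (2.10), and Ldb1, a cofactor of Gata1 complexes (2.02). Klf1 ran from 0 to 499 CPM (median 29.3) in the high set and from 0 to 13.3 CPM (median 0.821) in the low set, at 10 CPM or more in 6 and 2 cells. In Gata1 cells alone the differences were 3.25 for Klf1, 2.65 for Car1, 2.68 for Gypc and 1.34 for Blvrb, while Gata1 itself differed by −1.29. The list median there was 0.23, just under the 0.25 of all genes in those cells. With single cells left out the lowest differences were 1.94 for Klf1, 1.74 for Ldb1 and 1.71 for Blvrb. Of 20 other settings, Gypc was past 2 in 19, Icam4 in 18, Car1 in 14, Klf1 and Blvrb in 11 each, and Ldb1 in 10. Adult-type and embryonic globins of the list, Hbb-bt, Hbb-y, Hba-x and Hbb-bh1, were at 0 in both sets.

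In the granulocyte and monocyte list 0 of 31 genes were called higher and 4 (12.9%) lower, against 8.82% and 0.75% of all genes. The 4 were Nkg7, Plac8, Tyrobp and Mpo, and the list median was −0.82. Summed CPM of the list ran from 12.6 to 35528 (median 226) in the high set and from 71.8 to 79694 (median 2617) in the low set. Tyrobp, a signalling adaptor of myeloid cells, differed by −2.11, and came to −1.61 with 1 cell left out. In Gata1 cells alone the list median was −0.19, with Nkg7 at −2.34, Plac8 at −1.70 and Tyrobp at −1.34. In the same Gata1 cells Wdhd1 stood at −5.72, Ly6e at −3.53, Cd24a at −2.98, Cd27 at −2.38 and Uhrf1 at −1.63, and the S phase list had a median of −1.09. With only cells under 1000 CPM of Mpo, 9 high and 6 low, 20 of the 81 named genes were no longer past the limit. Nkg7 was at −1.64 there, Smc2 at 1.09 and Wdhd1 at −5.71. The erythroid list median was 0.10, against 0.23 for all genes in those cells. How far the unequal numbers of Mpo cells enter the other differences was not tested beyond such values.

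Of 24 stem and early progenitor genes, 1 (4.17%) was called higher and 1 (4.17%) lower, against 8.82% and 0.75% of all genes. These were Mllt3 (2.01) and Runx1 (−2.01), which came to 1.63 and −1.61 with a single cell left out. Kit, the receptor used in the sort, had medians of 105 and 460 CPM and a difference of −1.82. Markers of other cell types varied between cells, and 1 gene of these lists was called. Summed CPM of 20 macrophage genes reached 552 in the high and 223 in the low set, with medians of 6.35 and 16 CPM and 0 calls among 16 genes compared. Hepatoblast genes had summed medians of 1.79 and 5.72 CPM, with Apob, Ttr and Hnf4a at 0 in both sets, and endothelial and stromal genes had 3.42 and 17.5, with Col1a1, Col3a1 and Pdgfra at 0. Lymphoid genes had medians of 6.07 and 322 CPM, Nkg7 being the called gene, while Cd79a, Pax5, Rag1 and Cd4 were at 0. Mast cell and basophil genes had summed medians of 9.01 and 167 CPM, reaching 1770 CPM in the low set. Of their members, Hdc, which makes histamine, differed by −1.54 and Cpa3, a mast cell protease, by −1.50, neither a call, while Fcer1a, Mcpt4 and Tpsb2 were at 0. Megakaryocyte genes had summed medians of 271 and 172 CPM, reaching 3141 and 2441 CPM, and a median difference of 0.90 with 0 of 10 called. Their largest differences were those of Cd9 (1.79), Vwf (1.67, read in 7 high cells and 1 low cell), Gp9 (1.58) and Rab27b (1.41), and Ppbp, Gp6 and Tubb1 were at 0. In Gata1 cells alone Cd9 and Vwf came to 2.46 and 2.05.

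The 22 cells between the sets entered neither mean and allowed a second description. In these cells the score followed Plk1 (rho 0.78) more than Cenpf (0.32), Ccnb1 (0.30), Cdc20 (0.22) or Ccnb2 (0.14), so it was not an even measure of the 5 genes. Over the 22 cells the 142 mitotic genes had a median rho with the score of 0.0983, against 0.00738 for all 9603 genes. Of the 142, 96 were over 0, against 51.5% of all compared genes. Of the 847 genes called higher, 470 (55.5%) had a rho over 0, with a median of 0.04, and of the 72 called lower, 44 (61.1%) had a rho under 0, against 48.4% of all. The share for the genes called higher lay near that of all compared genes.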

How the data were processed

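RNA of 48 single BFU-E cells was amplified by SMART-Seq on a Fluidigm C1 chip and made into Nextera XT libraries, per the labels' protocols. Read counts per gene for 24062 genes were deposited by the authors, with TopHat2 2.0.12, featureCounts 1.4.6 of Subread and mm10 named in the submitters' processing notes. The deposited log2 table equals log2 of the count over a DESeq size factor, plus 1, within 1e-06, and served as an alternative. All 48 count columns match no sample title.

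CPM used the summed counts of a cell, and log2 values a pseudocount of 1. Cells, score, sets, the minimum of 10 cells and the limit of 2 are given above. No test was made, because the sets were chosen from the same counts of 1 sample. The members and gene lists were chosen with earlier results of these data known. Named genes were the score genes, Gata1, Mpo and C1qb, the 15 largest differences each way at a mean of 5 CPM or more, the called members of each list (the 4 largest where a list had 0 or over 8), and the 5 genes most like the score between the sets. Others named were chosen after their values were seen. Of the genes this rule names, 1 is not reported here. Ighm was not in the table. Positions are from GENCODE M21 and promoters from RefSeq, matched by symbol for 7279 of 9603 genes.

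Alternatives were TMM of edgeR 4.0.16 in R 4.3.3, other pseudocounts, filters, set sizes, scores and cell choices, thinning, and leaving out each cell. Python 3.11.15, numpy 2.4.6, pandas 2.3.3 and scipy 1.17.1 were used. The steps were tested on simulated data.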

Additional observations from a re-analysis of the deposited data

How the results depend on the processing

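The sets held 12 cells each from 1 sample, and a gene read in few cells rests on the depth of those cells, from 246007 counts upward. Of 847 genes called higher and 72 lower, the counts were 114 and 7 with a pseudocount of 10, which shrinks differences of low genes. They were 1312 and 187 with 8 cells a set (8 genes without overlap), and 496 and 42 with 16 (0 without overlap). The deposited log2 table gave 121 lower calls, the sets without the 5 shallowest cells 113, and the score without Ccnb2 115. Sets drawn among Gata1 cells gave 334 lower calls, 5 genes without overlap, a Gata1 difference of −1.29 and an Mpo difference of −0.81. Medians in place of means gave 1618 higher and 219 lower calls and −3.50 for Mpo. Genes without overlap numbered 4 in the score without Cdc20 and 2 in that without Cenpf. Chosen after seeing the data, centring on the median of all genes gave 502 and 184 calls, and sets without cells at 1000 CPM of Mpo gave 332 lower calls, 4 genes without overlap and −1.86 for Gata1. Leaving out each cell gave 838 to 945 higher calls, 71 to 107 lower and 1 to 3 without overlap, Gata1 from 0.29 to 1.21 and Mpo from −2.77 to −1.51. Of 81 named genes past 2 in size, 29 stayed past it in every alternative, 44 lost it with a pseudocount of 10, and 61 kept it with each cell left out. The 5 score genes, which chose the cells, are among the 81, the 29 and the 61, so these counts are not independent support. No named gene past 2 in size changed sign. The list median of G1 genes turned to −0.00296 on centring and that of immediate early genes to −0.57 with TMM, among other settings. That of the 3 endothelial and stromal genes compared turned from −0.28 to 0.38 in Gata1 cells, also among other settings. No paired analysis was possible because the labels give 1 group.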

Other observations

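Ribosome biogenesis, G1 and early response genes were also compared between the 12 highest and 12 lowest cells. In the nucleolus and ribosome biogenesis list 4 of 30 genes (13.3%, against 8.82% of all genes) were called higher and 0 lower, and 17 of 30 lay above the median of all genes. The list median was 0.67, and the called genes were Rrs1 (3.197), Rrp12 (2.07), Nat10 (2.03) and Pes1 (2.02), factors of ribosomal RNA processing. Nat10, Rrp12 and Pes1 came to 1.69, 1.62 and 1.71 with 1 cell left out. The median of the G1 cyclins and Cdk inhibitors was 0.38, the same as for all genes, and 2 of 13 (15.4%, against 8.82%) were called higher: Cdkn2d, an inhibitor of Cdk4 and Cdk6 with medians of 74.1 and 0 CPM (3.86), and Ccnd3, cyclin D3 with medians of 141 and 3.13 CPM (2.30). Of 13 immediate early genes 0 were called either way, with Egr1 at 1.93, Fos at 0.84, Myc at −0.90 and Junb at −1.16.

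Among the 22 cells between the sets, the genes with the highest rho with the score were Mrpl50 (0.68), AI413582 (0.66), Map3k5 (0.66), Katnbl1 (0.62) and Cct7 (0.61). Between the 12 highest and 12 lowest cells they differed by 0.47, 0.48, 1.09, 1.24 and 0.75, none of them a call.

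The 2 cells left out for C1qb, at 4084 and 4650 CPM of it, had scores of 21.75 and 23.97, in the range of the cells between. Plk1 was at 0 in both, Ccnb1 at 911 and 99.3 CPM, Tpx2 at 208 and 174 CPM, and Mki67 at 1.23 and 614 CPM.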
